A study of Mus musculus with 4 samples.

Results

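This account concerns macrophages given lipopolysaccharide (LPS), the caspase inhibitor zVAD and the necroptosis inhibitor Nec-1. It sets the array labelled LPS/zVAD/Nec-1 against the array labelled LPS/zVAD. These are 2 of the 4 arrays in the series, and every gene with a usable signal was compared between them, 12203 genes of the 19938 measured. Where several probes carried the symbol of one gene and no other, that with the largest mean signal over all 4 arrays stood for it, and the gene was kept if its highest signal reached the median of all values, a log2 signal of 6.47 (the filter level). Among the genes kept, 405 (3.32%) were at least 2-fold lower with Nec-1 and 139 (1.14%) were at least 2-fold higher, 4.46% in either direction. The 2-fold threshold is a rule of size: each condition had 1 array, which leaves every difference without a replicate check or a p-value, and nothing in the labels speaks of separate cultures.

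All 4 arrays held total RNA of bone marrow-derived macrophages from female BALB/c mice (BalbC in the labels), grown in medium conditioned by L929 cells, which contains the growth factor M-CSF. The control cells received none of the agents. The others received LPS at 10 ng/ml, LPS with zVAD at 50 µM, or LPS and zVAD with Nec-1 at 30 µM, so LPS and zVAD were shared by both arrays compared here. The labels give no duration for any treatment. There was no array of cells given only zVAD or only Nec-1, nor of LPS plus Nec-1 without zVAD, so a response to Nec-1 that does not pass through RIPK1 cannot be told apart from one that does. The series' design text names changes in inflammation that depend on RIPK1 kinase as its question.

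LPS is a bacterial cell wall component that activates Toll-like receptor TLR4, and macrophages answer with cytokines, chemokines and interferon-stimulated genes. Downstream of TLR4 the kinase RIPK1 can join caspase-8 and RIPK3, and caspase-8 normally restrains them. With caspases blocked by zVAD, RIPK1 and RIPK3 can form a complex that phosphorylates MLKL, which permeabilises the plasma membrane in the lytic death called necroptosis. The same kinases are also known to drive the transcription of inflammatory genes, and Nec-1 inhibits the kinase activity of RIPK1.

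Promoter windows were taken from the RefSeq table of GRCm38.p6, each covering 250 bases before a transcription start and 50 bases after it. The windows shown belong to the 3 genes with the lowest differences that have an entry there, Ifnb1, Lif and Hamp, and to Il12b, the gene with the highest difference. They let the letters upstream of the genes at both ends of the comparison be read beside their values. Ifnb1 encodes interferon beta, Lif a cytokine of the IL-6 family, Hamp the iron hormone hepcidin, and Il12b the p40 subunit of IL-12 and IL-23. The windows are Ifnb1 at chr4:88522745-88523044 on the minus strand, Lif at chr11:4257318-4257617 on the plus strand, Hamp at chr7:30943980-30944279 on the minus strand and Il12b at chr11:44399813-44400112 on the plus strand. All run 5′ to 3′ along the gene, and capitals mark matches to 6 motifs searched on both strands.
Ifnb1: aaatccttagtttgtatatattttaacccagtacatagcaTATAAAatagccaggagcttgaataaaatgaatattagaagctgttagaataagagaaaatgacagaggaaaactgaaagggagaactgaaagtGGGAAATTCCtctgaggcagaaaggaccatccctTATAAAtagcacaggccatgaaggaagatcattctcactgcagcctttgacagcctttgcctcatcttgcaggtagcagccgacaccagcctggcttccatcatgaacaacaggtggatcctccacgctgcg
Lif: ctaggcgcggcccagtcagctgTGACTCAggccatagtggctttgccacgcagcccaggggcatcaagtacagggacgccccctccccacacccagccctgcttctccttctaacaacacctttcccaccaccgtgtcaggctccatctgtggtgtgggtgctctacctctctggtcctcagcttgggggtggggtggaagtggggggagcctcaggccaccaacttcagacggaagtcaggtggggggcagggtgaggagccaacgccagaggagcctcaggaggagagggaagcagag
Hamp: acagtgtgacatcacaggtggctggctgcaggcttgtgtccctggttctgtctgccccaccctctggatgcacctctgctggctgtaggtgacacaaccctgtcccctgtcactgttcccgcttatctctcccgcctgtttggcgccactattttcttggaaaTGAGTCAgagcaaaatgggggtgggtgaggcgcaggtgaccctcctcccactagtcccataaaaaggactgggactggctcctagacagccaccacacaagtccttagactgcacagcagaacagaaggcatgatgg
Il12b: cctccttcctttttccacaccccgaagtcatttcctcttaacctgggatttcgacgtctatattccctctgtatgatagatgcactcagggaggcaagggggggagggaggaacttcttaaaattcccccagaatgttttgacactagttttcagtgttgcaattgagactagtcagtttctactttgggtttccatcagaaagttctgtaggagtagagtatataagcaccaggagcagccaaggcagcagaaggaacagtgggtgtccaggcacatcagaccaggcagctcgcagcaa
The Ifnb1 window held an NF-kB match (GGGAAATTCC, 116 bases before the start) and the letters TATAAA at 210 and 82 bases before it. The Lif window held an AP-1 match (TGACTCA) 228 bases before the start, and the Hamp window one (TGAGTCA) 87 bases before it. None of the 6 motifs was found in the Il12b window.

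The motifs searched were the AP-1 site TGANTCA, the cyclic AMP response element TGACGTCA, the interferon-stimulated response element (GAAA, any 2 bases, GAAA), the TATA box letters TATAAA, the CArG box and the NF-kB site. Of the 405 lower genes 311 had windows, 414 in all, and of the 139 higher genes 116 had 154. TGACGTCA was in 4.83% of the windows of lower genes (20 windows) and 0.649% of those of higher genes (1 window). Its share was 2.94% of the 12367 windows of all genes past the filter. The AP-1 letters were in 8.94% and 5.19%, against 5.38%, and TATAAA in 13.3% and 7.14%, against 7.29%. Windows of lower genes therefore held these 3 motifs at larger shares than windows of all genes past the filter. The same was true of the interferon-stimulated response element and the CArG box, but not of the NF-kB site, all given below. Over all 32851 windows of the table, whatever gene they belong to, the shares were 1.79% for TGACGTCA, 7.81% for AP-1 and 13.6% for TATAAA. Neither TGANTCA nor TGACGTCA contains the other, and overlapping matches were counted for each motif. The NF-kB site was in 4.35% of the windows of lower genes, 5.84% of those of higher genes and 5.31% of those past the filter, and the interferon-stimulated response element in 4.35%, 3.9% and 3.05%. The CArG box was in 2.17%, 0.649% (1 window) and 1.33%, and over the whole table these 3 motifs stood at 4.51%, 3.44% and 1.63%. A match is a run of letters and not a measured binding site. Some genes have several windows that share bases, and the shares were not tested.

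Most genes differed little between the 2 arrays. The median difference (LPS/zVAD/Nec-1 minus LPS/zVAD, on the log2 scale) was 0.07 with an SD over genes of 0.47, and 6580 genes (53.9%) lay within 1.2-fold. The larger a difference was, the more often it lay on the lower side, with 109 genes at least 3-fold lower against 16 higher, 51 against 3 at 4-fold, and 13 against 0 at 8-fold. In 375 of the 405 lower and 126 of the 139 higher genes both signals reached the filter level. The lower genes made up 1.59% of genes with a mean signal from the filter level to log2 8, 4.97% of those from 8 to 10, 4.6% from 10 to 12 and 1.35% above 12. For the higher genes these shares were 0.531%, 1.9%, 1.27% and 0.15%. Differences in both directions were thus spread over the middle of the signal range. Where a lower gene had further probes past the filter (29 genes), these were also lower in 28 and at least 2-fold lower in 17. For the 5 such higher genes they were also higher in 5 and at least 2-fold higher in 2.

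**Figure D1:**
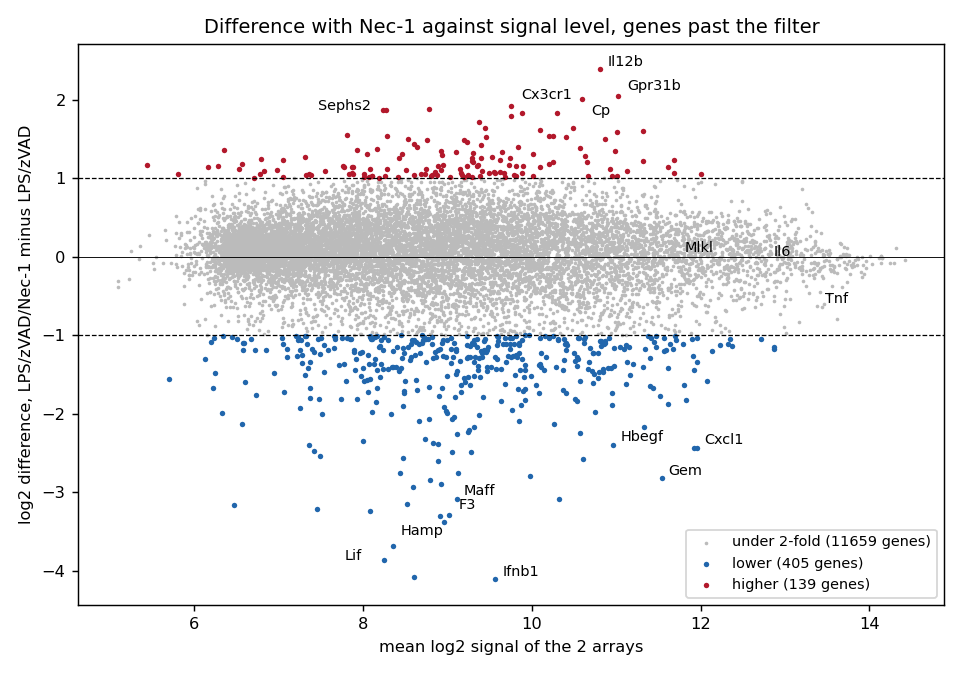
Log2 difference between LPS/zVAD/Nec-1 and LPS/zVAD (vertical axis) against the mean log2 signal of these 2 arrays (horizontal axis), 1 point per gene for 12203 genes and 1 array per condition. The 405 genes at least 2-fold lower reach down to Ifnb1 at -4.11, and the 139 genes at least 2-fold higher reach up to Il12b at 2.38.

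The cells carried macrophage markers at high level on every array. Levels are given from here on as log2 signals in a fixed order: control, LPS alone, LPS/zVAD, and last the array with Nec-1 added. Lyz2, the macrophage lysozyme, stood at 14.05, 14.01, 13.98 and 13.93, and Adgre1, which encodes the surface marker F4/80, at 12.50, 13.31, 12.62 and 13.26. The median of 29 macrophage identity genes was 12.23 with LPS/zVAD and 12.47 with Nec-1 added, and 3 of the 27 past the filter (Cx3cr1, Ccr2 and Maf) were at least 2-fold higher and 0 lower. The 10 B cell markers had medians of 5.47 and 5.41, the 14 T and NK cell markers 5.42 and 5.54, the 11 mast cell and basophil markers 4.78 and 4.81 and the 4 erythroid markers 6.12 and 6.25. These 4 medians were all under the filter level. The 15 neutrophil markers had medians of 8.15 and 8.70 (range 4.90 to 11.83, then 4.59 to 12), the 16 stromal and endothelial markers 6.65 and 7.16 (range 4.01 to 9.30, then 4.46 to 9.44) and the 12 dendritic cell markers 6.56 and 6.60. Of these markers of other cells, among those past the filter, Cd28 alone was at least 2-fold apart, and its signal was under the filter level with Nec-1. RNA from a whole culture does not tell fewer cells of a kind from less RNA per cell, and the part of other cells in the differences was not tested.

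Among the largest differences were genes of cytokines, a growth factor, a hormone and tissue factor that were highest on the LPS/zVAD array. Ifnb1 had log2 signals of 5.42, 6.48, 11.62 and 7.51, 17.3-fold lower with Nec-1 than without it. Bmp2, a bone morphogenetic protein, stood at 5.32, 5.73, 10.65 and 6.57, a difference of -4.08. Hamp stood at 4.72, 6.01, 10.21 and 6.52, a difference of -3.69. In each of these the LPS/zVAD array was the highest of the 4 by more than 8-fold, and the Nec-1 array lay above the control array. Lif stood at 5.94, 5.51, 10.19 and 6.32, and since its signal with Nec-1 was under the filter level, it was at least 13.1-fold lower, counted from that level. Such bounds apply to folds, while the counts use the deposited signals. F3, tissue factor, a membrane protein which starts the extrinsic coagulation pathway, stood at 5.95, 7.25, 10.67 and 7.38 and was 9.79-fold lower. For F3 the values with Nec-1 and with LPS alone were close to each other, and for Lif both were under the filter level.

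The other genes among the 15 lowest were also highest on the LPS/zVAD array, while the order of the remaining arrays varied. Maff, a small MAF transcription factor, stood at 6.62, 7.20, 10.66 and 7.57 (8.52-fold lower). Sphk1, which makes the lipid mediator sphingosine-1-phosphate, stood at 7.13, 7.24, 10.38 and 7.48 (7.45-fold lower). Gem, a RAS-related GTPase, stood at 6.21, 7.82, 12.95 and 10.13, a difference of -2.82. Unlike Maff and Sphk1, Gem stayed more than 2 log2 units above its LPS value. Slc39a2, a zinc importer, stood at 6.82, 8.57, 11.87 and 8.78 (8.5-fold lower). Htr2a, a serotonin receptor, stood at 6.30, 7.91, 11.38 and 8.58, a difference of -2.80. Others among the 15 lowest were Prrg4 (-3.38), Gprc5a (-3.16), Zfp945 (-2.94), Socs2 (-2.85), Fam171b (-2.76) and Tnfrsf26 (-2.76). A further probe of Socs2 differed by -1.04, less than its main probe. Lower bounds were also set for Tnn (at least 9.44-fold), Zbtb10 (6.05-fold), Serpinb10 (4.92-fold) and Tnfsf14 (4.55-fold), whose signals with Nec-1 were under the filter level. Of these, Serpinb10 was highest in control cells.

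**Figure D2:**
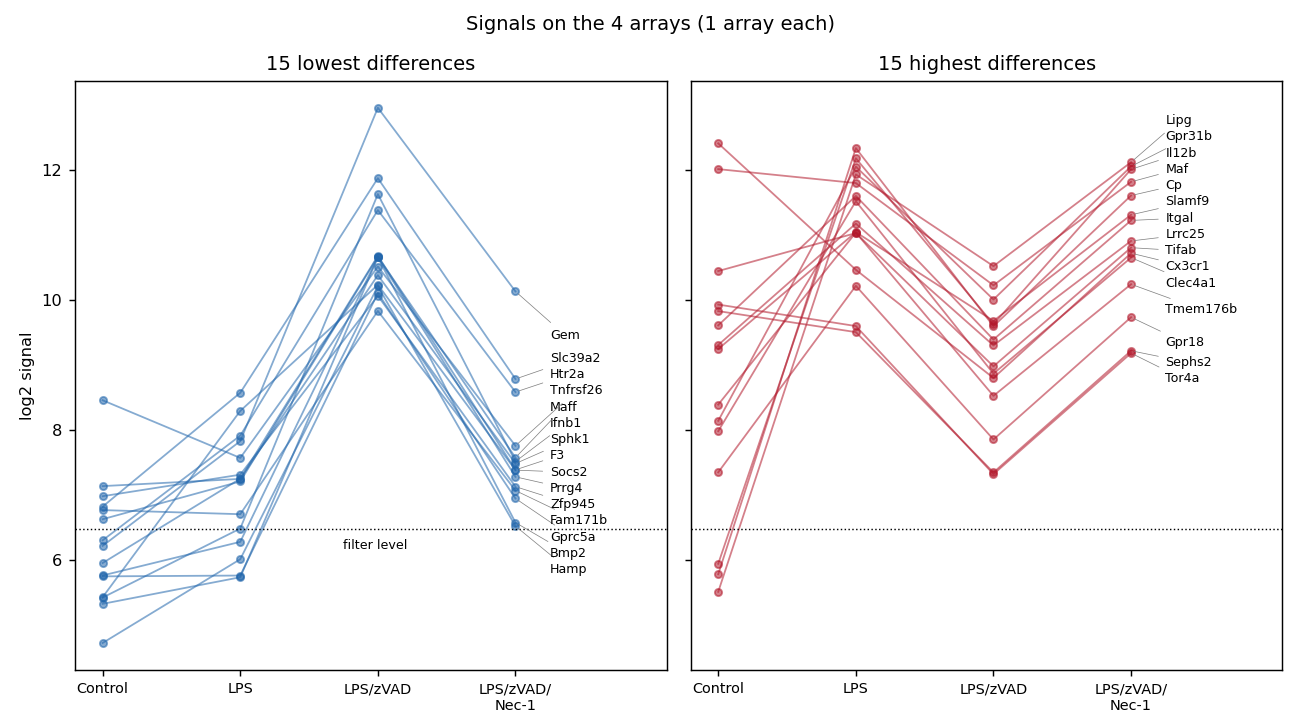
Log2 signal (vertical axis) of named genes on each of the 4 arrays (horizontal axis, control on the left and Nec-1 on the right), 1 array per condition, with lines joining the values of a gene and the filter level of 6.47 marked. Lower genes such as Ifnb1 peak on the LPS/zVAD array at 11.62 and stand at 7.51 with Nec-1, and higher genes such as Il12b dip there to 9.62 and stand at 12.

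The 15 genes with the highest differences dipped on the LPS/zVAD array. Il12b had log2 signals of 5.94, 12.17, 9.62 and 12 and was 5.22-fold higher with Nec-1. Gpr31b, a G protein-coupled receptor, stood at 8.14, 12.04, 10.00 and 12.05 (4.13-fold), and a further probe of it was higher by 2.09. Cp, the copper-carrying ferroxidase ceruloplasmin, stood at 5.78, 12.33, 9.59 and 11.60, a difference of 2.01. With Nec-1, Il12b and Gpr31b were close to their LPS values, while Cp was lower than with LPS. Cx3cr1, the receptor of the chemokine fractalkine, stood at 12.40, 10.46, 8.79 and 10.71, a difference of 1.92. Itgal, the alpha chain of the integrin LFA-1, stood at 9.60, 11.59, 9.39 and 11.22, and Maf, a macrophage transcription factor, at 12.01, 11.79, 10.22 and 11.81. Cx3cr1 and Maf differ from Il12b in being high in control cells. Others among the 15 highest were Gpr18 (1.88), Sephs2 (1.87), Tor4a (1.86), Clec4a1 (1.78), Tmem176b (1.72), Tifab (1.82), Lrrc25 (1.61), Slamf9 (1.63) and Lipg (1.60), the endothelial lipase. No gene had a Nec-1 signal at least 2-fold above all 3 other arrays (0.0% of genes past the filter).

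Cytokine families were mixed, and only some of their members were apart. The counts below stand beside 3.32% lower and 1.14% higher of all genes past the filter. In the IL-6 ligand family 2 of 6 members past the filter were at least 2-fold lower, Lif and Osm (oncostatin M), the latter at 7.83, 8.88, 12.41 and 10.24. Il6 itself stood at 4.58, 12.88, 12.80 and 12.76, so it was close to the same level on all 3 arrays with LPS. In the IL-12 family Il12b was the 1 of 4 members past the threshold. Il33, an alarmin of the IL-1 family, stood at 5.38, 7.68, 9.34 and 7.33 and was the 1 of 9 lower. Il10, an anti-inflammatory cytokine, stood at 5.42, 8.91, 10.03 and 8.30 and was the 1 of 6 lower in its family. Of 7 IL-2 and common gamma chain genes past the filter, 3 were lower and 1 higher, with a median of -0.04 over all 11 measured. The lower were Il2, at 4.64, 4.75, 8.07 and 4.90 and at least 3.02-fold lower, and the receptor chains Il2ra (-1.06) and Il7r (-1.02), and the higher was the receptor Il21r (1.26). Il2 was over the filter level on the LPS/zVAD array and under it on the other arrays, so it was counted only through the array where it was high. Among 9 colony stimulating factors and receptors 2 were lower. Csf1, which encodes M-CSF, stood at 6.35, 8.84, 10.76 and 9.23, and Csf2, which encodes GM-CSF, at 5.19, 5.26, 7.33 and 5.34, at least 1.82-fold lower when counted from the filter level. Like Il2, both Csf2 and Lif passed the filter only through the LPS/zVAD array.

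Chemokines were 2-fold apart in single members, and TNF superfamily ligands in 3 of 10. By comparison, 3.32% of all genes past the filter were lower and 1.14% higher. Cxcl1, a neutrophil attractant, stood at 8.38, 10.00, 13.18 and 10.74 and was the 1 of 10 CXC chemokines past the threshold. Ccl12, a monocyte attractant, stood at 8.0, 11.88, 11.05 and 12.19 and was the 1 of 13 CC chemokines, here higher. The list medians for both were near 0 and changed sign with the scaling, from -0.02 to 0.01 for CXC and from -0.02 to 0.06 for CC under 3 scalings and as deposited. Tnf stood at 10.75, 12.57, 13.70 and 13.07, a difference of -0.63. Of 10 TNF superfamily ligands, 3 were lower, Tnfsf14, Tnfsf8 (-1.14) and Tnfsf15 (-1.05). Among 13 receptors of that family Tnfrsf26 and Tnfrsf12a, the TWEAK receptor (8.87, 8.68, 11.22 and 9.53), were lower, and Tnfrsf14, the receptor of LIGHT (9.76, 11.39, 9.64 and 11.17), was higher. Tnfrsf14 and its ligand gene Tnfsf14 thus lay on opposite sides.

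Growth factor genes included several of the larger differences. For comparison, 3.32% of all genes past the filter were lower and 1.14% higher. Hbegf, an EGF receptor ligand, stood at 7.93, 8.72, 12.17 and 9.77 (-2.40) and was the 1 of 4 EGF receptor ligands past the threshold. Inhba, the activin A subunit, stood at 6.38, 9.83, 12.23 and 10.58, and with Bmp2 made up the 2 lower of 17 BMP, activin and TGF-beta genes. In that list Id3, a target of BMP signalling, was higher by 1.03 (0.99 after cyclic loess). Pdgfa stood at 9.18, 9.08, 11.28 and 9.54 and was among 3 of 10 growth factors of the VEGF, PDGF and HGF type that were lower, with Hgf (-1.02) and Pgf. Pgf passed the filter only through the LPS/zVAD array. With Nec-1 it was under the filter level and at least 1.43-fold lower counted from it. With low signals raised to that level 2 of the list were lower. Hbegf, Inhba and Pdgfa were each highest with LPS/zVAD, and with Nec-1 each remained above its LPS value.

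Early response genes are switched on within minutes to hours of a signal through MAP kinases and calcium. The list of other early response genes held the most lower members of any list. Lists were chosen with earlier results of these data known, so that ranking only describes the lists chosen. Of 20 other early response genes past the filter 10 were lower and 0 higher, against 3.32% lower and 1.14% higher of all genes past the filter. Their median was -0.62 over all 22 measured, against 0.07 over all genes past the filter. Csrnp1, a nuclear protein induced by many signals, stood at 7.42, 9.81, 12.56 and 10.67. Gadd45a, a stress-induced regulator of growth arrest, stood at 7.08, 7.56, 9.77 and 7.20. Ier5 (-1.73), Phlda1 (-1.59), Rhob (-1.52), Gadd45g (-1.42), Sgk1 (-1.36), Plk3 (-1.30) and Plk2 (-1.05) were also lower. With Nec-1, Gadd45a was below its LPS level and Csrnp1 was 0.87 above it. The tenth is Errfi1, described at the end. Of 9 EGR and NR4A factors 3 were lower: Egr1 at 7.78, 7.13, 9.99 and 8.20, Egr2 at 7.23, 7.12, 9.30 and 7.71 and Nr4a3 at 5.87, 8.13, 9.93 and 8.01. Of 16 FOS, JUN, ATF and MAF factors 3 were lower and 1, Maf, higher. Jun stood at 11.44, 10.57, 11.93 and 10.75 and Mafk at 8.35, 9.08, 11.46 and 9.61, while Fos differed by -0.48. Of 10 KLF factors Klf9 (7.83, 7.71, 10.36 and 8.12) and Klf4 (7.47, 7.09, 8.87 and 7.31) were lower. The list medians were -0.35 for EGR and NR4A, -0.40 for FOS, JUN, ATF and MAF and -0.37 for KLF factors.

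Some feedback inhibitors of the same pathways were lower too, where 3.32% of all genes past the filter were lower and 1.14% higher. Dual-specificity phosphatases, which switch off MAP kinases, had 4 lower of 12, with a list median of -0.49. Dusp10 stood at 7.46, 8.26, 11.33 and 9.19 and Dusp4 at 8.37, 9.31, 11.57 and 10.02, Dusp16 differed by -1.11 and Dusp8 by -1.06 (-0.69 by the mean of its probes). Dusp1, already high with LPS, stood at 9.55, 12.69, 12.93 and 12.71. Of 16 ERK pathway and Sprouty genes 1 was lower, Spry2 (-1.05). Among 18 SOCS and other signalling inhibitors 3 were lower, Socs2, Cish (6.48, 8.07, 9.82 and 7.76) and Zfp36l2, and 1 was higher, Irak3, a brake on TLR signalling, at 10.21, 11.91, 9.87 and 11.26. The list median was -0.46, while Socs1 and Socs3 differed by 0.03 and -0.04. Among 17 mRNA decay regulators Zfp36l2 (11.27, 9.46, 11.90 and 10.00) and Rc3h1 (-1.07) were lower, with a list median of -0.45.

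**Figure D3:**
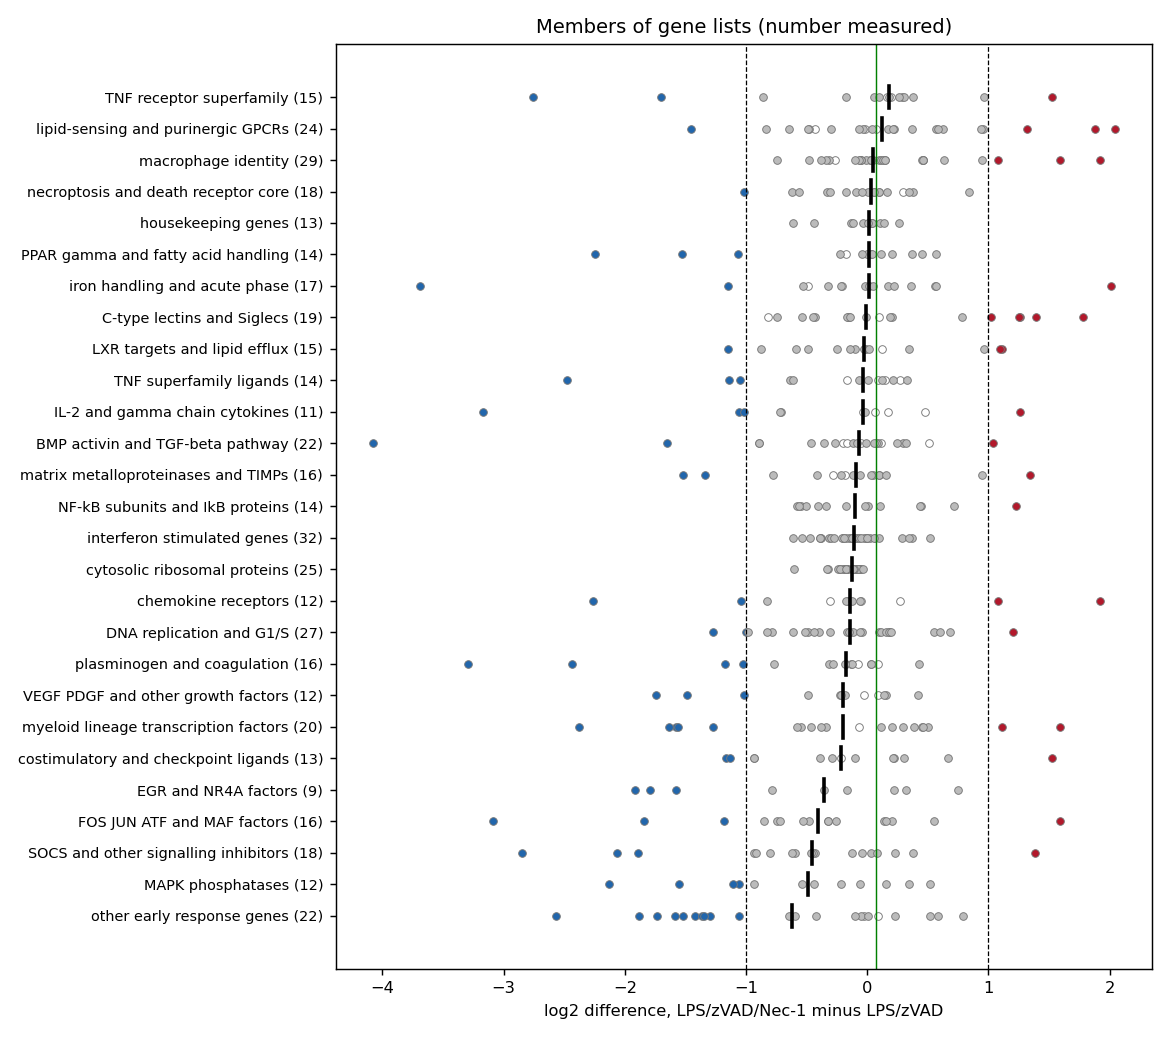
Log2 difference with Nec-1 (horizontal axis) of each measured member of 27 gene lists (rows), 1 array per condition. The rows were chosen from 70 lists, most for their number of members 2-fold apart and a few by name. They do not stand for all lists. Filled points passed the filter and open points did not; black bars are list medians and the green line is the median of all genes past the filter, 0.07, with the list of other early response genes at -0.62.

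Of the 139 higher genes 28 were in any of the lists, among them receptors and lectins of the cell surface. Over all genes past the filter 1.14% were higher and 3.32% lower. Of 16 C-type lectins and Siglecs past the filter 5 were higher and 0 lower: Clec4a1, Clec4a2 (1.26), Clec4a3 (1.25), the sialoadhesin gene Siglec1 (1.39) and Siglece (1.02, and 0.95 after cyclic loess). The Clec4a genes are neighbours of similar sequence, whose probes may share signal. The median over the 19 measured lectins and Siglecs was -0.01, with 10 members below 0. Of 16 Toll-like receptor genes Tlr1 (9.97, 11.89, 10.13 and 11.62) and Tlr8 (1.22) were higher. Tlr4, the receptor of LPS, stood at 9.99, 9.51, 10.15 and 9.20, a difference of -0.95. After cyclic loess 1 member of that list was at least 2-fold lower. Of 9 chemokine receptors Cx3cr1 and Ccr2 (11.22, 11.04, 9.02 and 10.09) were higher and Cxcr4 (9.39, 7.08, 10.25 and 7.99) and Ccr1 (-1.04) lower. Cxcr4 is the receptor of CXCL12 and Ccr2 that of CCL2. Of 21 lipid-sensing and purinergic receptors 3 were higher, Gpr31b, Gpr18 and Gpr65 (1.32), a proton sensor, and P2ry2, an ATP and UTP receptor, was lower (8.83, 8.97, 9.85 and 8.39). P2ry2 was lower on the Nec-1 array than on any other. Of 18 integrin and adhesion genes Itgal was higher and Itgav lower (-1.16), and of 12 costimulatory genes Cd83 (-1.13) and Pvr (-1.16) were lower and Tnfrsf14 higher. None of 19 scavenger and clearance receptors, 13 Fc gamma receptor and complement genes or 8 MHC class II genes was 2-fold apart.

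The plasminogen and coagulation list held 4 lower of 14 and 0 higher, against 3.32% and 1.14% of all genes past the filter. Plau, the urokinase plasminogen activator, stood at 12.78, 9.46, 13.14 and 10.71 (-2.43). F3 is given above, F10 differed by -1.18 and Serpinb2, an inhibitor of urokinase, by -1.03. Plau was high in both control and LPS/zVAD cells, unlike F3, which was lowest in control cells. Among 14 metalloproteinase and TIMP genes Adamts1 (-1.52) and Mmp10 (-1.34) were lower, and Mmp14, which acts at the membrane, was higher (7.64, 12.22, 10.32 and 11.66). Of 15 iron and acute phase genes 3 were apart, with Hamp and the iron exporter Slc40a1 (10.47, 8.04, 8.98 and 7.84) lower and Cp higher.

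The core genes of necroptosis differed little. Mlkl stood at 8.93, 11.86, 11.73 and 11.73 and Ripk3 at 9.84, 9.44, 9.74 and 9.40. Casp8 stood at 12.50, 13.17, 12.98 and 13.03 and Zbp1 at 8.50, 12.45, 12.32 and 12.42. Mlkl and Zbp1 were thus higher on the arrays with LPS and each was close to 1 level on all 3 of them. The 1 of 17 past the threshold was Ticam1, the TLR adaptor TRIF, with a difference of -1.01 (-0.98 after quantile normalization), and the list median of 0.03 ranged from -0.02 to 0.06 under the scalings. Ripk1 was not analysed here. Pycard, the inflammasome adaptor ASC, was 1.06 higher (0.99 after cyclic loess), and Bcl2l11, the death-promoting protein BIM, differed by -1.28. Of 18 ESCRT-III and membrane repair genes 1 was lower, Chmp1b (7.97, 9.62, 11.36 and 9.78).

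Interferon-stimulated genes, in contrast to Ifnb1, were close on both arrays. None of the 32 was 2-fold apart, and they ranged from -0.62 to 0.52 with a median of -0.11. Mx2, at the low end, stood at 5.87, 11.65, 12.36 and 11.74. Irf4 was the 1 of 8 interferon regulatory factors past the threshold (5.82, 6.90, 7.74 and 6.47, at least 2.41-fold lower), and Irf1 differed by -0.95. Among 14 NF-kB subunits and IkB genes Ikbke, an IKK-related kinase, was higher (11.32, 12.40, 11.07 and 12.30), and the median was -0.10.

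Metabolic and stress lists held at most 3 genes 2-fold apart each, and the medians of some were below 0. Among all genes past the filter 3.32% were lower and 1.14% higher. Fabp4, a fatty acid carrier, stood at 8.44, 9.42, 11.69 and 9.45 and the nuclear receptor Pparg at 9.77, 8.0, 10.01 and 8.48, and with Fabp5 (-1.07) they made up 3 lower of 13, although the list median of 0.02 turned to -0.01 after centring. The LXR gene Nr1h3 (1.11) and its target Mylip (1.09) were higher among 14 LXR genes, and Scd2 was lower. Insig1, which holds back cholesterol synthesis, stood at 11.57, 10.42, 12.64 and 11.19 and was the 1 of 20 cholesterol genes. Arg2 (7.52, 11.17, 11.35 and 10.01) and the arginine transporter Slc7a1 (-1.06) were the 2 lower of 10 in the nitric oxide and arginine list, whose median was -0.50 with 8 of 10 members below 0. Ppp1r15a, which reverses the stress-induced block of translation, stood at 7.38, 8.65, 11.90 and 9.32, and Atf4 differed by -0.66. Ppp1r15a was the 1 of 19 integrated stress response genes past the threshold, and the list median was -0.36 with 18 of 20 members below 0. Of the remaining stress lists, 0 of 22 unfolded protein response and 0 of 20 NRF2 genes were 2-fold apart. Single genes were apart in further lists: Ndrg1 (-1.42) of 23 glycolysis and HIF genes, Mdm2 (-1.11) of 13 p53 targets, and Hsph1 of 12 heat shock chaperones, higher by 1.03 (0.95 after cyclic loess). Of 25 lysosomal genes Atp6v0d2 (-1.78) and Ctsk (at least 1.8-fold) were lower. None was apart of 14 prostaglandin and leukotriene genes, 4 IL-6 family receptors or 14 ubiquitin editor and TRAF genes. Nec-1 is also known to inhibit the enzyme IDO, and Ido1 was under the filter level on all 4 arrays (5.52, 5.36, 5.31 and 5.50), as were Cyp1a1 and Cyp1b1, targets of the aryl hydrocarbon receptor. Tiparp, another such target, was the 1 of 8 past the threshold (-1.05). Whether IDO or this receptor had a part in the differences was not tested.

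Lineage transcription factors of myeloid cells had 5 lower and 2 higher of 19, against 3.32% and 1.14% of all genes past the filter. Bhlhe40 stood at 8.26, 7.96, 10.03 and 7.65, Bhlhe41 differed by -1.64, and Irf4, Egr2 and Klf4 were the other lower members; Maf and Nr1h3 were the higher ones. Among 27 DNA replication genes Mcm4 (-1.27) and Mcm6 (-1.0, and -0.98 after quantile normalization) were lower and Ccnd3 higher (1.2), and among 25 mitosis genes Cdc20 was lower (-1.07). Ribosomal proteins (0 of 25) and housekeeping genes (0 of 13) were not apart. Actb stood at 14.36, 14.35, 14.26 and 14.37.

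**Figure D4:**
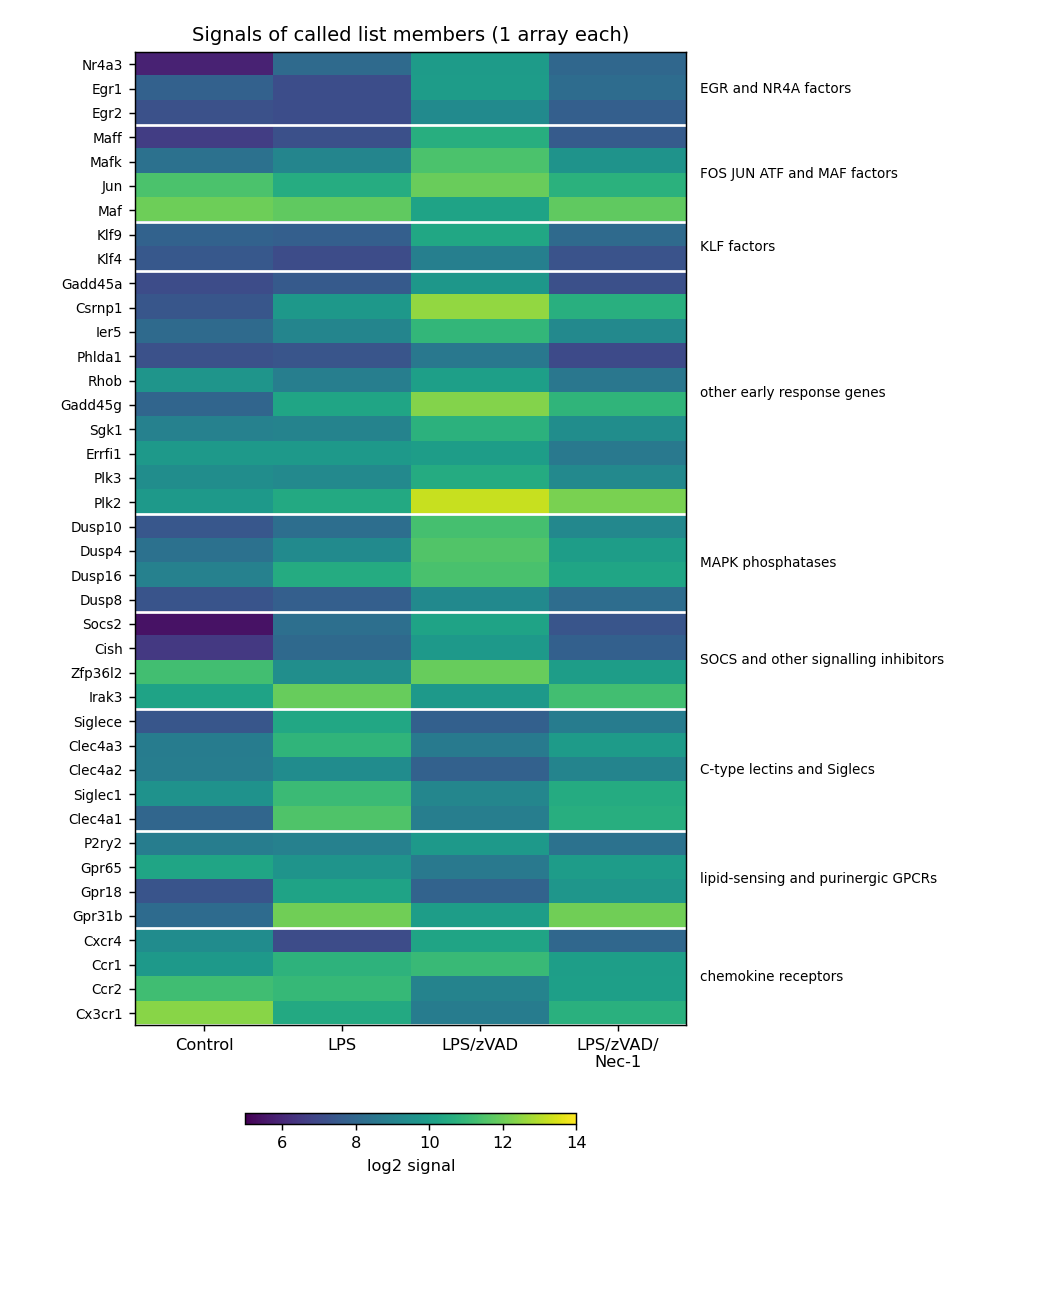
Log2 signal (colour scale) of 40 list members at least 2-fold apart with Nec-1 (rows, grouped in 9 lists) on the 4 arrays (columns), 1 array per condition. Lower members such as Csrnp1 are brightest on the LPS/zVAD array (12.56, against 10.67 with Nec-1), and higher members such as Clec4a1 are dimmer there (8.86, against 10.65).

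The response to LPS alone was measured on 2 arrays that the comparison with Nec-1 does not use, so it could be set beside it. Of the 405 lower genes, 77 (19.0%) were at least 2-fold higher with LPS than in control cells and 58 (14.3%) at least 2-fold lower. Of the 139 higher genes, 53 (38.1%) were higher with LPS and 6 (4.32%) lower. Over all genes past the filter these shares were 8.24% and 7.2%. Read from the other side, 77 (7.66%) of the 1005 genes higher with LPS were lower with Nec-1 and 53 (5.27%) were higher. Of the 879 genes lower with LPS, 58 (6.6%) were lower with Nec-1 and 6 (0.683%) higher. Genes with no 2-fold response to LPS made up 66.7% of the lower and 57.6% of the higher genes, against 84.6% of all. At 2-fold the higher genes thus held a larger share of genes higher with LPS than the lower genes did, a difference that was not tested. It did not hold with 1.5-fold as the rule for both comparisons. There 274 of 999 lower genes and 235 of 892 higher genes were higher with LPS. The median levels of the lower genes were 8.38, 8.57, 10.03 and 8.45, and those of the higher genes 9.21, 9.98, 8.60 and 9.76, of which the last 2 in each run follow from the choice of the genes.

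**Figure D5:**
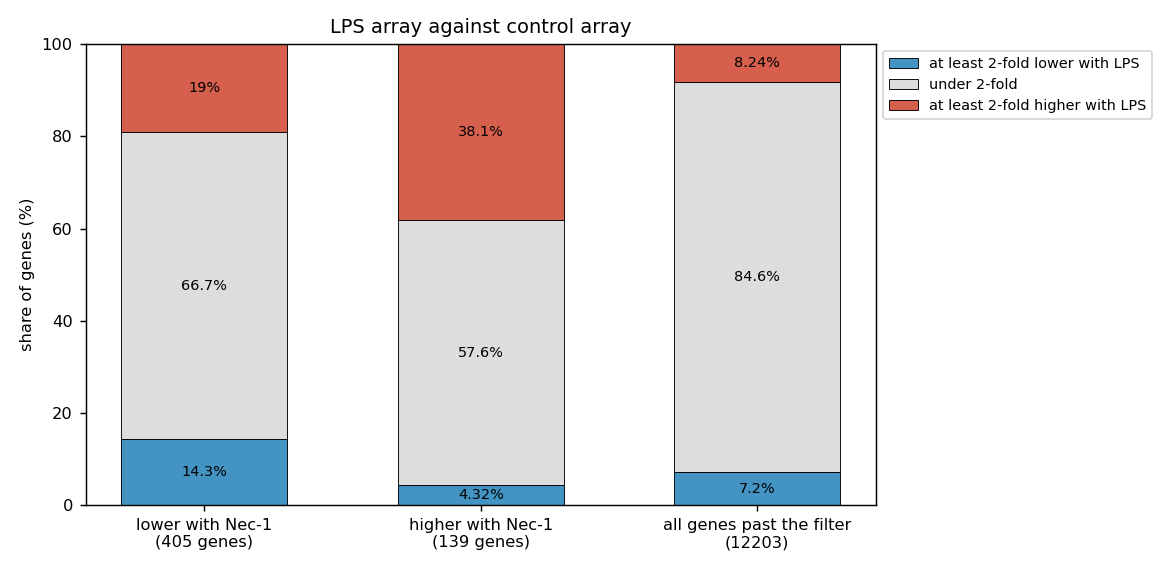
Share of genes in percent (vertical axis) that were at least 2-fold higher or lower on the LPS array than on the control array, for genes lower with Nec-1 (405), genes higher with Nec-1 (139) and all 12203 genes past the filter. Bars start at 0; genes higher with LPS make up 19.0%, 38.1% and 8.24%.

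Only 5 genes (0.041%) had a Nec-1 signal at least 2-fold below all 3 other arrays. Errfi1, a feedback inhibitor of the EGF receptor, stood at 9.82, 9.83, 9.99 and 8.65, Scd2, a fatty acid desaturase, at 12.28, 10.01, 8.77 and 7.62 and Kcnj2, a potassium channel, at 8.66, 8.06, 8.03 and 6.99. Serpinb10 stood at 9.54, 8.18, 8.77 and 6.23 and Zfp931 at 6.61, 6.90, 6.49 and 4.92, both under the filter level with Nec-1. With low signals raised to that level 4 genes were counted, without Zfp931. Errfi1 was level on the other 3 arrays, whereas Scd2 was already lower with LPS and lower still with LPS/zVAD.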

How the data were processed

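RNA of macrophages in 4 conditions was measured on Affymetrix arrays, 1 array per condition. Deposited signals, 1 per gene-level probe, are log2 values; the submitters' processing notes name Affymetrix Expression Console as the tool. Its version and the normalization it applied are not stated in the labels. The unit was inferred from the range of the values, whose array medians were 6.52, 6.41, 6.46 and 6.49. Of 35556 probes, 21789 had 1 gene symbol in the platform annotation, 1621 several and 12146 none.

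Differences of log2 signals between single arrays were computed with no test, and 2-fold was the rule of size. Folds against a signal under the filter level count from that level. The number of arrays limits the precision. The steps were run on simulated data with planted differences past 2-fold and little noise. That run checks the code and says nothing of how far single arrays vary. Members and the 70 gene lists were chosen with earlier results of these data known; 1005 of their 1095 members were matched, 4 by an older symbol, and 1 list is not reported here. Named genes were the 15 lowest and 15 highest differences, the 5 largest bounds each way, up to 5 members per list, a set of key genes, and the 10 largest gaps each way between the Nec-1 array and the nearest of the 3 others. The rankings left out predicted, RIKEN and clone symbols, small RNAs, antigen receptor segments, and olfactory or vomeronasal receptors. Any other gene named, and the families gathered by symbol, were picked with their values in view. Alternatives were 3 scalings (median centring, quantile, cyclic loess with limma 3.58.1 in R 4.3.3), low signals raised to the filter level, the mean of all probes of a gene, other filters and other folds. Promoters were matched by symbol to RefSeq, GRCm38.p6, with Python 3.11.15, pandas 2.3.3 and numpy 2.4.6.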

Additional observations from a re-analysis of the deposited data

How the results depend on the processing

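Counts of higher and lower genes were 120 and 434 after median centring, 130 and 401 after quantile normalization, 99 and 467 after cyclic loess, 128 and 388 with low signals raised to the filter level, 136 and 391 by the mean of all probes, 139 and 408 with no filter, and 116 and 330 with a filter at the upper quartile. The lower genes kept under the 3 scalings numbered 405, 391 and 405, and the higher 120, 127 and 99. At 1.5-fold, 892 genes were higher and 999 lower, 3 had a Nec-1 signal above all other arrays and 21 below. At that fold 274 lower genes were higher with LPS and 252 lower, and 235 higher genes were higher with LPS and 140 lower. At 3-fold, 16 were higher and 109 lower, 1 was below all other arrays, and the LPS counts were 15, 10, 11 and 1 in that order. With the upper-quartile filter 3 genes were below all others. The alternatives on the LPS counts were added after seeing the data. Lower genes outnumbered higher genes under every setting, and 11 of 70 list medians changed sign under a scaling. At 1.5-fold the higher genes no longer held a larger share of genes higher with LPS than the lower genes did. No paired analysis was possible because each condition had 1 array. With 1 array a condition, differences from cells, labelling and hybridisation cannot be told apart, signals under the filter level carry no order, and the depth of this comparison is set by signal over background, for which no detection calls were used here.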

Other observations

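Further gene families, some sharing members with the lists, were gathered by symbol after their values were seen, so their counts are descriptions of a chosen pattern. Of 21 histone genes past the filter among 26 measured, 7 were at least 2-fold lower with Nec-1 and 0 higher, with a median of -0.67 over the 26. H1f1 stood at 11.23, 9.13, 11.73 and 9.76 (control, LPS alone, LPS/zVAD, then with Nec-1 added), H2ac4 at 11.03, 9.20, 11.42 and 9.61 and H4c6 at 11.18, 10.29, 11.49 and 9.99. All 3 were high in control cells and with LPS/zVAD, and lower on both other arrays. Histone genes are alike in sequence, and their probes could share signal.

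Of 24 Serpinb genes 8 passed the filter and 5 were lower, with Serpinb8 at 9.22, 8.14, 8.89 and 7.45. Among 14 serotonin receptor genes measured 3 passed the filter, and the median over the 14 was -0.003. Of the 3, 2 were lower, Htr2b at 6.42, 6.82, 8.28 and 6.81 and Htr2a at 6.30, 7.91, 11.38 and 8.58. Both were highest on the LPS/zVAD array. Among 13 zinc importers past the filter 3 were lower and 0 higher, Slc39a2, Slc39a10 (-1.30) and Slc39a8 (-1.09). Of 4 PI3K catalytic genes Pik3cg (11.12, 9.89, 7.82 and 9.12) and Pik3cd (9.21, 9.93, 8.78 and 9.95) were higher. Each was lowest on the LPS/zVAD array. Of 27 Arhgap genes past the filter among 32 measured 5 were lower and 0 higher. The medians of the zinc importers and Arhgap genes past the filter were 0.15 and 0.16, above the 0.07 of all genes past the filter. Among all those genes 3.32% were lower and 1.14% higher. Of 7 SLC38 amino acid transporters past the filter among 11 measured 2 were lower (Slc38a1 and Slc38a2). Of 4 Fabp genes past the filter among 9 measured 3 were lower, with a median of -0.14 over the 9. Of 5 Slamf genes 2 were lower (Slamf1 and Slamf8) and Slamf9 was higher. Of 14 carbohydrate sulfotransferases measured 9 passed the filter. Among these 3 were higher, Chst14 (1.48), Chst12 (1.11) and Chst7 (1.09), and Chst11 was lower (-1.29). Probes that carry more than 1 symbol, or none, are left unnamed, and of the 5843 past the filter 135 were at least 2-fold lower and 63 higher.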
